A study of Homo sapiens with 34 samples.

Results

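The 6 genes ADIRF, AGAP11, PTCH1, MTSS1L, HSPB1, and RAD9A are described here across a circadian time course and a set of chromatin immunoprecipitation (ChIP-seq) libraries from human U2OS osteosarcoma cells. They were chosen because the row of each in the expression tables holds a gene named at a site shared by the clock transcription factors BMAL1 and CLOCK, and because that row was called rhythmic in 1 of 2 conditions, outside the core clock genes. The 6 names correspond to 5 rows of the 28690 loci in the expression tables, since ADIRF and AGAP11 share 1 row and cannot be told apart. All 5 rows were among the 51.2% of loci with the highest mean expression, called the expressed loci below, for which the lowest mean was 0.698 FPKM (fragments scaled to the length of the transcript and to the mapped fragments of the library).

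All cells were Bmal1:luc U2OS, a line in which the Bmal1 promoter drives luciferase, so that every comparison rests on 1 engineered cell line. For RNA-seq, cells synchronized with dexamethasone were cultured with 5 mM 6AN (6-aminonicotinamide), an inhibitor of the pentose phosphate pathway (PPP), or with DMSO alone (control). The labels place the harvests 4 hr apart, from 0 to 44 hr, with 1 library for each of 12 times in each condition. In the plots of the study the same harvests run from 24 to 68 hr, so that hours below are those of the labels and not hours from the start of treatment. For ChIP-seq, 1 library per condition was made after 24 hr of 6AN or DMSO for each of BMAL1, CLOCK, H3K4me3, H3K9ac, and input DNA. The osteoblast transcription factor RUNX2 (13.9 FPKM in 6AN and 14.0 in control) and the mesenchymal genes VIM, SPARC, COL1A1, and CDH2 were expressed. COL1A1 had 128 FPKM in control and 33.9 in 6AN and SPARC 323 and 129, with ranges over times that did not overlap, and the part of this in the members' levels was not tested. Among the other markers, COL1A2 was at or near 0 (0 to 0.106 FPKM), and of markers of other cell types only EPCAM reached a mean of 1 FPKM (1.02 in control).

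BMAL1 and CLOCK bind DNA as a heterodimer at E-boxes, whose canonical form is CACGTG, and drive the transcription of clock genes such as the PER, CRY, and NR1D families. The products of PER and CRY genes repress BMAL1/CLOCK in turn, which closes a loop of about a day. The same pair also binds near many genes outside the loop, of which some cycle and many do not. Among the 6 genes, ADIRF (adipogenesis regulatory factor) is a small protein linked to fat cell differentiation, and AGAP11 is annotated in RefSeq as a non-coding member of the AGAP family of Arf GTPase-activating proteins. PTCH1 is the receptor of Hedgehog ligands and restrains SMO, the transducer of that pathway. MTSS1L, now named MTSS2, is an inverse BAR domain protein that shapes membranes. HSPB1 is the small heat shock protein Hsp27, a chaperone of cytoskeletal and unfolded proteins. RAD9A is a subunit of the 9-1-1 clamp, which is loaded at damaged DNA to activate the ATR checkpoint kinase.

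The sequences beneath the binding sites are shown first because E-boxes lay at the centre of the peaks where a promoter sequence was at hand. Each is the 250 bases before a RefSeq start site (GRCh38.p14), written 5′ to 3′ on the strand of the gene, with CACGTG in capitals. They come from the antisense transcript ADIRF-AS1 (chr10:86971241-86971490, minus strand), from RAD9A (chr11:67391736-67391985, plus strand), and from MTSS2, the current name of MTSS1L (chr16:70686054-70686303, minus strand).
ADIRF-AS1: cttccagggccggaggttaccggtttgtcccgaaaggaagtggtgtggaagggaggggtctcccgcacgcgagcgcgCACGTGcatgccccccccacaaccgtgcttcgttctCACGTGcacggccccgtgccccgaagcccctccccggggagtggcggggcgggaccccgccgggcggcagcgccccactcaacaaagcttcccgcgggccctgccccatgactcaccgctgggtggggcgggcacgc
RAD9A: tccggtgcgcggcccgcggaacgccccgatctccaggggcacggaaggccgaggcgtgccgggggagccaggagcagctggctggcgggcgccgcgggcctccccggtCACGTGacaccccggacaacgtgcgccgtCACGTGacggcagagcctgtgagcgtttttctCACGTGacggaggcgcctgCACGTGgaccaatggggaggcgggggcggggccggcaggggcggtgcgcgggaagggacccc
MTSS2: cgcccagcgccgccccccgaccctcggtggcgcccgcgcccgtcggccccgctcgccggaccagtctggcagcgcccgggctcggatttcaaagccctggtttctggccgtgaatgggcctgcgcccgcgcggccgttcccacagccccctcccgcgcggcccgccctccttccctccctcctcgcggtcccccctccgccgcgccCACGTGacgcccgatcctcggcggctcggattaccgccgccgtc

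The RAD9A promoter held 4 CACGTG motifs, which began 142, 113, 81, and 62 bases before the start site, and all 4 lay inside the merged BMAL1/CLOCK peak, at most 50 bases from its centre. The ADIRF-AS1 promoter held 2, with middles 9.5 and 26.5 bases from the centre of its peak. The single motif of the MTSS2 promoter lay 0.5 bases from the centre of its peak. CACGTG is its own reverse complement, so 1 search covered both strands. Over all 35116 RefSeq promoters of the same 300 bases (250 before and 50 after the start), 7.26% held at least 1 CACGTG, 0.664% at least 2, and 0.0142%, or 5 promoters, at least 4. Of the 302 promoters that overlapped a shared site in 6AN, 43.4% held at least 1, 13.9%, or 42 promoters, at least 2, and 0.993%, or 3 promoters, at least 4. The promoters of ADIRF, AGAP11, HSPB1, and PTCH1 (5 start sites) did not overlap their sites, and CACGTG was not found in those windows.

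**Figure D1:**
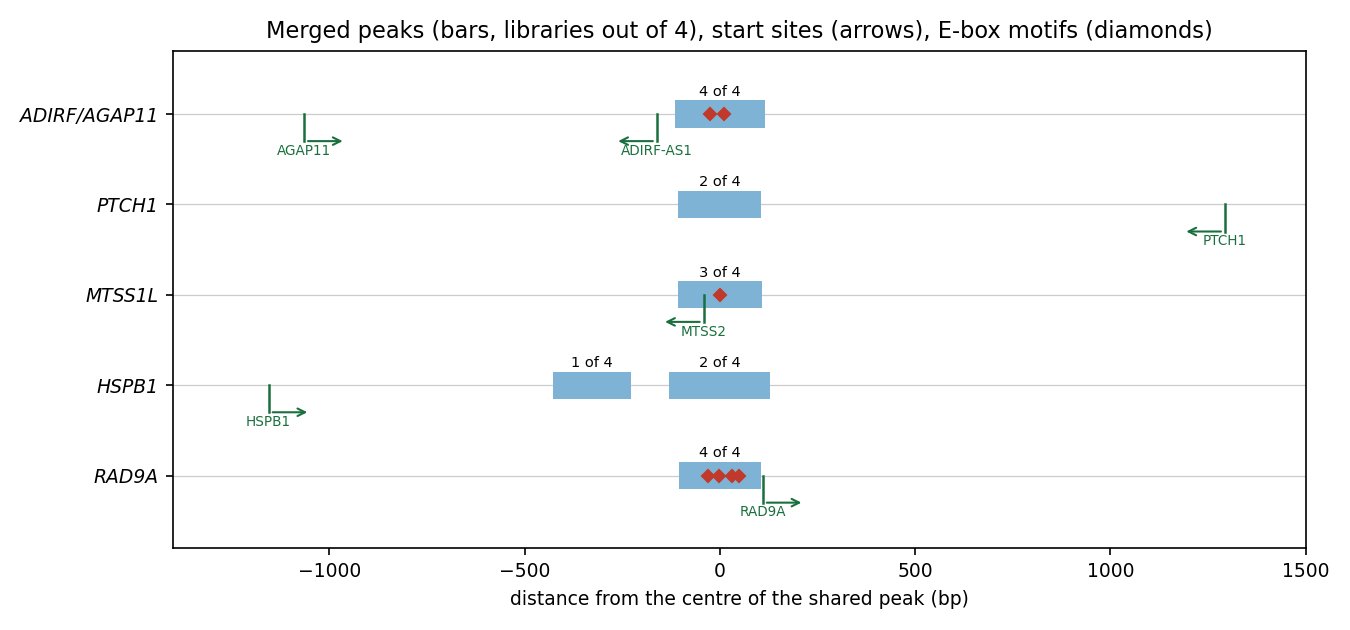
Position of merged BMAL1 or CLOCK peaks (bars, with the number of the 4 libraries in which the peak was called), RefSeq start sites within the window (arrows), and CACGTG motifs found in promoter sequences (diamonds), in bp from the centre of the shared peak. Motifs sit within the bars of ADIRF/AGAP11, MTSS1L, and RAD9A, and were searched only in promoters, so that the bars of PTCH1 and HSPB1 were not searched.

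Each gene name had 1 site among the 439 shared BMAL1/CLOCK sites in 6AN, apart from ADIRF, which named none and shares its row with AGAP11. In the coordinates of the files (hg38), the site named after AGAP11 (chr10:86970905-86971905) lay at the transcript end of ADIRF and 664 bp downstream of the AGAP11 start in the annotation of those files. The RefSeq table used for promoters has that start at another position, −1065 bp from the peak centre. The RAD9A site (chr11:67391380-67392380) was centred 72 bp upstream of the start site, and the MTSS1L site (chr16:70685598-70686598) 47 bp upstream. The HSPB1 site (chr7:76303328-76304328) lay in exon 2 of 3, 1270 bp downstream of the start, and the PTCH1 site (chr9:95505405-95506405) in intron 2 of 23, 1294 bp downstream. Only the AGAP11 and RAD9A sites were also among the 147 shared sites of control. Their merged peaks were called in all 4 BMAL1 and CLOCK libraries, that of MTSS1L in all but CLOCK in control, and those of HSPB1 and PTCH1 in the 6AN libraries of BMAL1 and CLOCK. HSPB1 had another peak, with its centre at −327 bp from that of its site, called in BMAL1 in control only.

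Binding at the AGAP11 site was among the strongest of the series. Signal is given as tags in the 1000 bp of a site per 10000000 tags of the library, with the 95% exact Poisson interval of the tag count, which covers counting error only since there was 1 library per antibody and condition. BMAL1 signal at the AGAP11 site was 232 in control (interval 199 to 269) and 290.0 in 6AN (254 to 330.1), which ranked 4 and 3 of the 439 sites. CLOCK signal was 414 (354 to 482) in control and 891 (806 to 982) in 6AN, rank 3 in each. Input signal there was 8.26 in control and 14.5 in 6AN, so that CLOCK stood 50.2-fold and 61.4-fold over input.

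CLOCK signal was higher in 6AN than in control at all 5 sites before correction for input, and BMAL1 signal at 2 of the 5. The shared peaks of HSPB1, PTCH1, and MTSS1L were called for CLOCK in 6AN and not in control. A higher CLOCK signal in 6AN was thus to some extent selected for at these sites. All ChIP libraries were made at the same hour of treatment, whereas peaks of the 7 clock genes below were 8.57 to 11.3 hr later in 6AN. The part of clock phase at harvest in the binding and histone changes was not tested. With the input change subtracted, the log2 CLOCK change was 1.23 at HSPB1, 1.18 at RAD9A, 0.36 at AGAP11, 0.19 at MTSS1L, and −0.01 at PTCH1. The 439 sites were listed for their peaks in 6AN, so that rises over the list were also to some extent selected for. Over the 439 sites, the median log2 change from control to 6AN was 1.104 for CLOCK and 0.46 for BMAL1. These medians are without input subtraction, so only uncorrected changes of the members are read against them. The uncorrected CLOCK change was 1.103 at AGAP11, 0.98 at MTSS1L, and 0.90 at PTCH1, and it was above the median at HSPB1 and RAD9A. The ratios and ranks below are also uncorrected. The CLOCK ratio of 6AN to control was 2.15 (1.79 to 2.59) at AGAP11, 2.60 (1.54 to 4.56) at RAD9A, where signal was 49.0 and 127, and 2.86 (1.40 to 6.37) at HSPB1, where it was 25.7 and 73.6. At MTSS1L (18.4 and 37.4) and PTCH1 (18.4 and 35.2) the ratios were 2.03 (0.82 to 5.60) and 1.91 (0.76 to 5.32), and these intervals include 1. The change at the 5 sites ranked from 108 to 278 of 439, in the middle of the list.

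The BMAL1 ratios lay on either side of 1, with intervals that include 1 at MTSS1L, RAD9A, and HSPB1. PTCH1 had a BMAL1 signal of 12.7 (5.97 to 23.8) in control and 46.9 (32.99 to 64.6) in 6AN, a ratio of 3.68 (1.77 to 8.47) that ranked 4 of 439. That site entered the list through its 6AN peak, so that a low control value was to some extent selected for. MTSS1L had 34.2 (22.2 to 50.3) in control and 22.2 (13.0 to 35.2) in 6AN, a ratio of 0.65 (0.33 to 1.24) that ranked 437 of 439, with only 25.5 and 17.5 tags behind it. At RAD9A (65.7 and 55.1) and HSPB1 (44.2 and 41.8) the ratios were 0.84 (0.54 to 1.29) and 0.95 (0.57 to 1.58). At AGAP11 the ratio was 1.25 (1.02 to 1.53), below the median of the list.

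**Figure D2:**
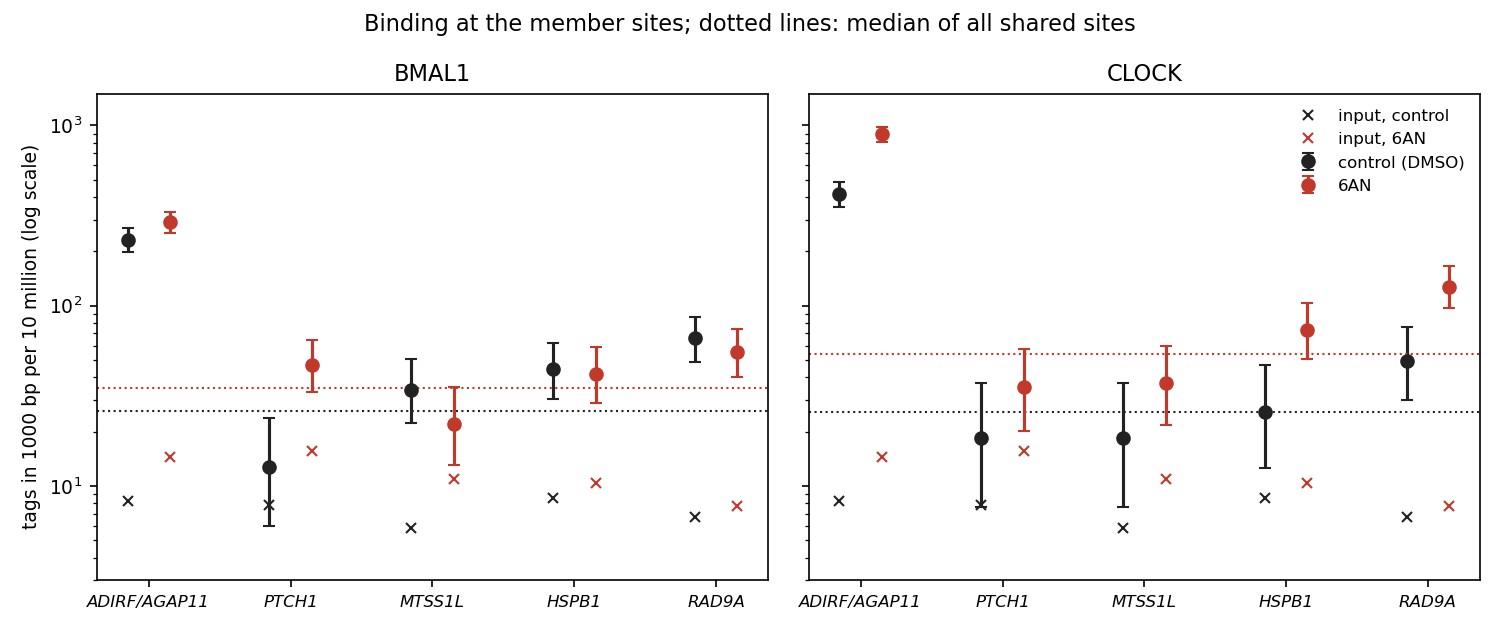
BMAL1 and CLOCK signal at the 5 member sites on a log axis in tags per 10000000 (control black, 6AN red; bars are 95% Poisson intervals of the tag counts; crosses are input; dotted lines are the medians of the 439 shared sites). CLOCK at ADIRF/AGAP11 reaches 891 in 6AN, and the PTCH1 control values lie close to input.

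Signal over input was lowest at PTCH1 for both factors in control and for CLOCK in 6AN, and at MTSS1L for BMAL1 in 6AN. At PTCH1, BMAL1 in control was 1.63-fold and CLOCK 2.35-fold over input, and in 6AN 3.02-fold and 2.26-fold. At MTSS1L, BMAL1 was 5.83-fold over input in control and 2.04-fold in 6AN, and CLOCK 3.14-fold and 3.43-fold. At HSPB1, BMAL1 was 5.16-fold and 4.03-fold and CLOCK 3.004-fold and 7.11-fold. Input itself was higher in 6AN at all 5 sites, by 1.15-fold at RAD9A to 1.99-fold at PTCH1, with 7.5 to 28.5 tags per site, and its part in the changes was not tested beyond subtraction.

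All 5 sites carried more H3K4me3 and H3K9ac than the median shared site. Their ranks were 58 to 149 of 439 for H3K4me3 and 57 to 178 for H3K9ac. The sites lay 47 to 1294 bp from an annotated start, and the part of this position in the marks was not tested. H3K4me3, a mark of active promoters, was above the median of the 439 sites at each site in each condition, with signals from 232 to 404 against medians of 140 in control and 136 in 6AN. It was lower in 6AN at HSPB1, from 404 (338 to 480.2) to 259 (215 to 310.3), a ratio of 0.64 (0.50 to 0.83). At the other 4 sites the H3K4me3 ratio ran from 0.82 to 0.97 with intervals that include 1. H3K9ac, an acetylation mark of active chromatin, was also above the list median at each site, and all 5 of its ratios, from 0.86 at HSPB1 to 1.72 (0.95 to 3.38) at MTSS1L, had intervals that include 1. The H3K9ac library of control was the shallowest, so that 13 to 26.5 tags lay behind each of its values at these sites.

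The transcripts spanned a wide range of levels. In control, the mean over 12 times was 899 FPKM (SD 135) for HSPB1, 16.2 (SD 1.33) for MTSS1L, 8.28 (SD 2.28) for ADIRF/AGAP11, 7.79 (SD 1.1) for RAD9A, and 6.09 (SD 0.379) for PTCH1. HSPB1 and MTSS1L stood apart from their neighbours, whereas the ranges of the other 3 overlapped in that order. In 6AN the order was the same, at 538 (SD 72.6), 26.4 (SD 2.16), 13.2 (SD 5.09), 7.43 (SD 1.44), and 6.30 (SD 0.678), and the ADIRF/AGAP11 range reached into that of MTSS1L.

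Rhythms were scored by comparing the ranks of each series with rise-and-fall (umbrella) shapes of a 24 hr period in a permutation test, and were called at p of at most 0.01. The members were chosen for a rhythm call in 1 condition, so that these p-values are given as a description. ADIRF/AGAP11, PTCH1, MTSS1L, and HSPB1 were called in 6AN and not in control, and RAD9A in control and not in 6AN. The share of all expressed loci called was 0.831% in control and 0.797% in 6AN, and no locus of either condition reached an adjusted p of 0.05 (Benjamini-Hochberg), with 738 and 626 loci at an unadjusted p under 0.05. By harmonic regression at 24 hr, 0.94% and 1.1% of expressed loci were called, and again 0 at an adjusted p of 0.05. In simulated tables, 0.939% (umbrella) and 1.04% (harmonic) of unaltered loci were called. The shares are thus about what the threshold admits without any rhythm. The study called more transcripts in each condition, with the RAIN algorithm at the same threshold. The members just inside the threshold were PTCH1, HSPB1, and RAD9A at p = 0.00654, and the next bound loci outside it stood at p = 0.0142, among them NR1D2 in control and PER2 and AGO1 in 6AN, which are named here after their values were seen.

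ADIRF/AGAP11 had the widest swing of the 5 rows. In 6AN its FPKM ran from 4.26 through a median of 13.3 to 25.04, with maxima at 8 hr (25.04) and at 32 and 36 hr (16.5 and 16.4) and minima at 20 and 24 hr (8.13 and 4.26). In control it ran from 3.84 through 8.31 to 11.95, with its highest values at 24 and 44 hr (11.95 and 11.2) and its lowest at 12 and 36 hr (5.57 and 3.84). The 6AN minimum fell at the hour of the control maximum, whereas at 8 hr, the 6AN maximum, control had 10.2 FPKM, among its highest values. The umbrella p was 0.000904 in 6AN (rank 5 of the expressed loci) and 0.203 in control. In 6AN the p stayed under 0.01 when any 1 time was left out, whereas harmonic regression gave p = 0.0246. The fitted cosine gave a peak at 10.5 hr (jackknife SE 1.11) with a 2.23-fold range from peak to trough in 6AN, and at 0.33 hr (SE 1.53) with a 1.60-fold range in control.

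RAD9A was the 1 member called in control. Its FPKM ran from 6.10 through 7.54 to 9.60, high at 4 hr (8.92) and at 24 and 28 hr (9.60 and 9.33) and low at 12 hr (6.10) and 40 hr (6.53). The umbrella p was 0.00654 in control and the harmonic p was 0.000525. Its peak was at 1.53 hr (SE 0.558) with a 1.40-fold range, and its fitted period was 24.2 hr (SE 1.14). In 6AN the values ran from 4.96 through 7.03 to 9.81, with p = 0.75. The 6AN series sloped downwards, and after a straight line was removed p was 0.0142 with a fitted peak at 10.97 hr (SE 1.32).

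MTSS1L varied by less in proportion. In 6AN its FPKM ran from 22.6 through 26.3 to 28.996, with highs at 16 and 20 hr (28.996 and 28.9) and at 40 and 44 hr (28.5 and 28.4) and a low at 28 hr (22.6). The umbrella p was 0.00321 and the harmonic p was 0.000549, against 0.659 and 0.689 in control. It peaked at 16.1 hr (SE 0.8) with a 1.22-fold range, and its p was under 0.01 without any 1 time point but 0.0494 after a straight line was removed. In control the values ran from 14.3 through 16.5 to 18.0 FPKM.

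HSPB1 and PTCH1 were nearer to the threshold. HSPB1 in 6AN ran from 458 through 514 to 684 FPKM, with highs at 12 hr (684) and 36 hr (647), umbrella p = 0.00654, and harmonic p = 0.00944. Its peak was at 13.9 hr (SE 0.976) with a 1.37-fold range. PTCH1 in 6AN ran from 5.43 through 6.24 to 7.39 FPKM, with highs at 12 hr (6.93) and at 36 and 40 hr (7.39 and 7.38), umbrella p = 0.00654, and harmonic p = 0.0118. Its peak was at 14.2 hr (SE 1.43) with a 1.21-fold range. In control their umbrella p-values were 0.75 and 0.803. HSPB1 was called in 5 and PTCH1 in 6 of the 12 series that each left out 1 time, as RAD9A was in control in 6, and the largest p in these was 0.0278, 0.0271, and 0.0278.

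**Figure D3:**
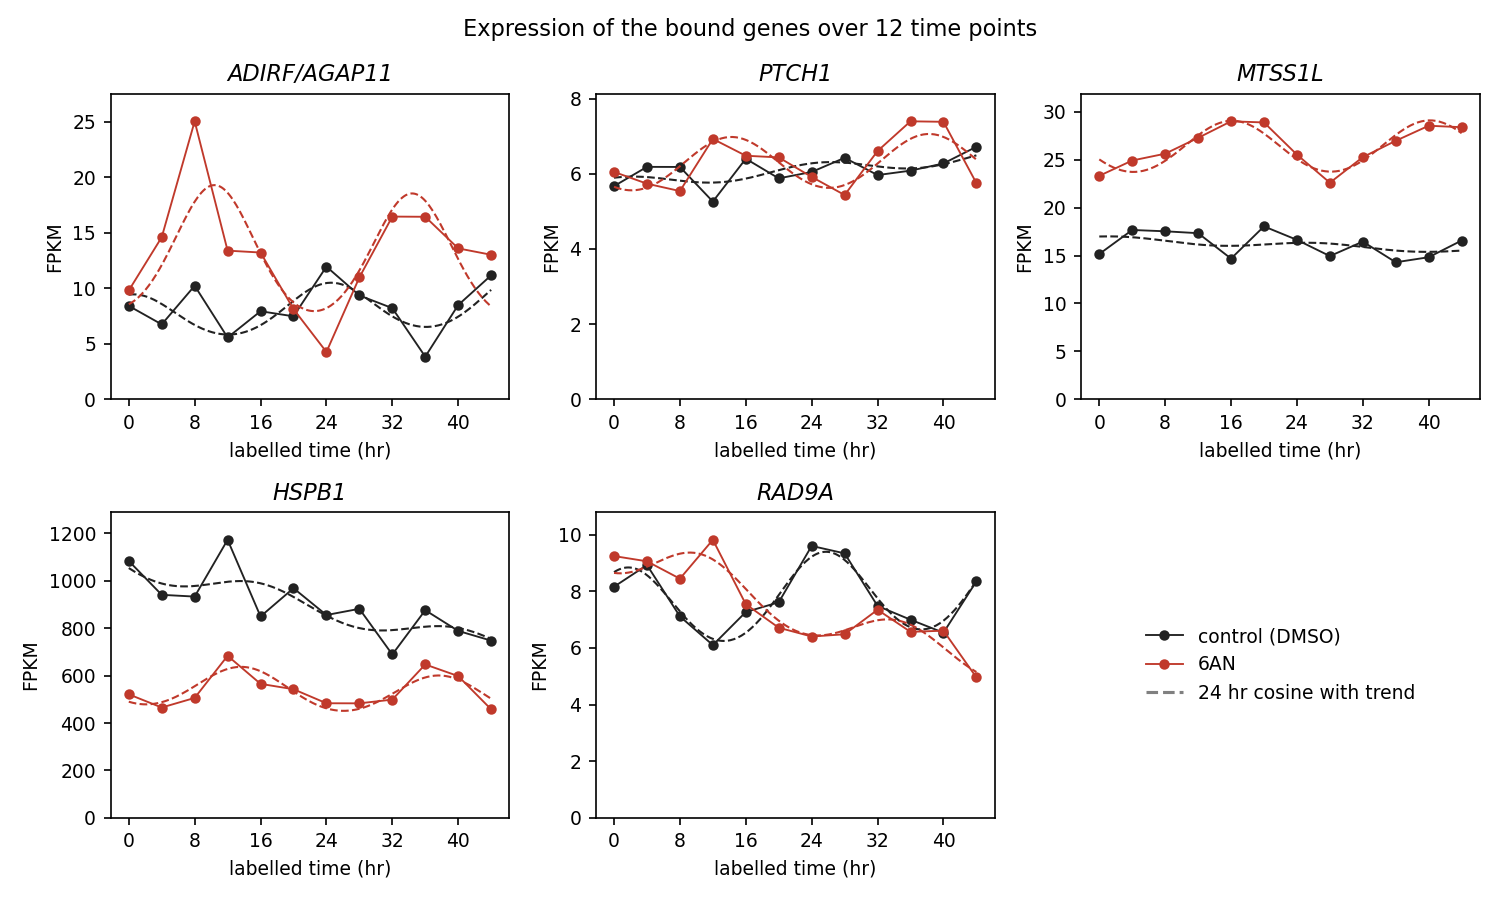
FPKM against labelled time (hr) for the 5 rows, 1 library per point, control in black and 6AN in red, with a fitted 24 hr cosine and linear trend as dashed lines. MTSS1L lies higher and HSPB1 lower in 6AN at all 12 times, and ADIRF/AGAP11 peaks at 8 hr in 6AN with 25.04 FPKM.

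The fitted periods of the members did not separate the conditions. In 6AN they were 28.2 hr (SE 2.15) for ADIRF/AGAP11, 26.2 hr (SE 2.36) for MTSS1L, 22.3 hr (SE 1.49) for HSPB1, and 21.1 hr (SE 3.005) for PTCH1. In control, where these rows were not called, the jackknife SE ran from 3.41 to 12.8 hr, so that no difference in period can be read from them.

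The 2 rows with the strongest BMAL1 sites had fitted peaks within 1 hr of that of PER3, in each condition, although each row was called rhythmic in only 1 condition. Over the 12 times r between RAD9A and PER3 was 0.87 in control and 0.11 in 6AN, where the harmonic p of RAD9A was 0.327, and r between ADIRF/AGAP11 and PER3 was 0.65 and 0.79. In control PER3 peaked at 0.79 hr, ADIRF/AGAP11 at 0.33 hr, and RAD9A at 1.53 hr. In 6AN PER3 peaked at 11.3 hr, ADIRF/AGAP11 at 10.5 hr, and RAD9A at 10.97 hr. The peak of ADIRF/AGAP11 was thus 10.1 hr later on the labelled clock in 6AN and that of RAD9A 9.44 hr later. Each of these shifts includes the fitted peak of a series that was not called rhythmic. Over the 7 clock genes ARNTL, NR1D1, NR1D2, PER3, TEF, DBP, and CRY1, the shift ran from 8.57 to 11.3 hr with a median of 9.75 hr. ARNTL, which encodes BMAL1 and cycles opposite to its targets, peaked at 11.6 hr in control and 21.99 hr in 6AN. The other 3 rows followed PER3 in 6AN, HSPB1 by 2.55 hr, PTCH1 by 2.88 hr, and MTSS1L by 4.83 hr, close to CRY1 at 14.4 hr. The jackknife SE of the control peaks of those 3 rows was 5.57 to 10.6 hr, which leaves their shift undefined.

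**Figure D4:**
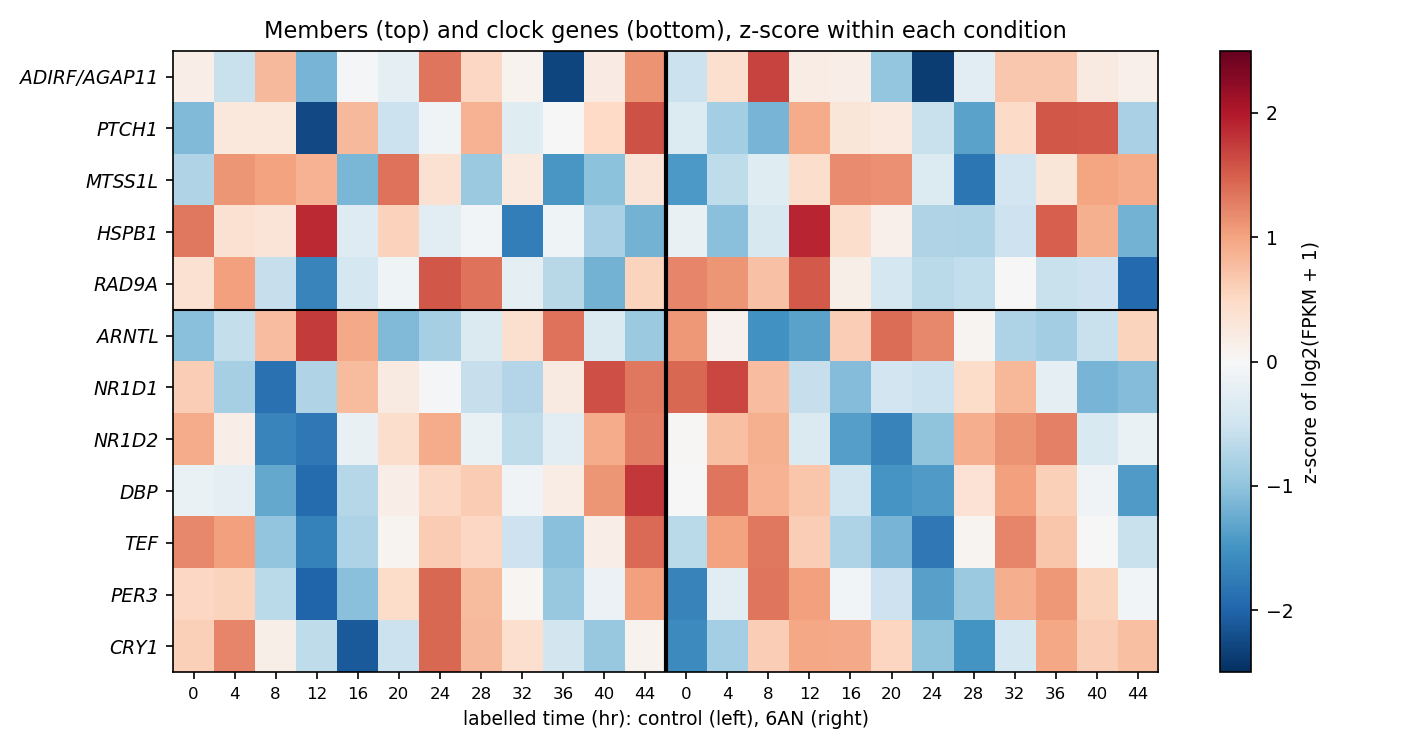
z-scores of log2(FPKM + 1) within each condition for the 5 rows and 7 clock genes (rows) over labelled time (columns, control left and 6AN right). RAD9A shares the high values of PER3 at 24 and 28 hr in control, and ADIRF/AGAP11 shares those of PER3 and TEF at 8 hr in 6AN.

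Clock genes were among the loci most like some of the members. Likeness was Pearson's r of log2(FPKM + 1) over the 12 times of 1 condition, a description over points that share a time course and with no test. The condition was the one in which each member was called rhythmic, so that likeness to rhythmic genes was to some extent selected for. For RAD9A in control, the likest expressed loci were PER3 (r = 0.87), RAD21-AS1 (0.86), and KDM3A (0.85). For ADIRF/AGAP11 in 6AN they were STAG3L3 (0.89), PUDP (0.88), and PER1 (0.88). For MTSS1L they were PNMA6A (0.89), TNNT2 (0.89), and CRY1 (0.88, mean 12.8 FPKM). No clock gene stood among the first 3 for HSPB1 (GLIS2 0.89, DAD1 0.88, PTPRF 0.88) or PTCH1 (SOX12 0.90, LOC100130093 0.90, ENC1 0.90). Against ARNTL, r in 6AN was −0.79 for ADIRF/AGAP11, −0.44 for HSPB1, −0.31 for RAD9A, −0.29 for PTCH1, and 0.01 for MTSS1L. In control it was −0.69 for RAD9A, −0.59 for ADIRF/AGAP11, and between −0.31 and 0.16 for the others.

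The level in 6AN was compared with control at the 12 matched times, with no test because the control and 6AN tables were normalized separately. MTSS1L was higher at 12 of 12 times, by 0.67 on the log2 scale (SD 0.15 over times, log2(FPKM + 1)), and its lowest 6AN value of 22.6 FPKM lay above its highest control value of 18.0. HSPB1 was lower at 12 of 12 times, with a mean difference of −0.74 (SD 0.22), and its highest 6AN value of 684 FPKM lay below its lowest control value of 689. Of all expressed loci, 12.6% were higher and 19.8% lower at all 12 times, so that such an order was frequent. ADIRF/AGAP11 was higher at 11 of 12 times, by 0.57 (SD 0.79), with the exception of 24 hr, where 6AN was at its minimum. PTCH1 (0.04, SD 0.18, higher at 7 of 12) and RAD9A (−0.07, SD 0.35, higher at 6 of 12) differed by less than their spread over times. The median over all expressed loci was −0.04.

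**Figure D5:**
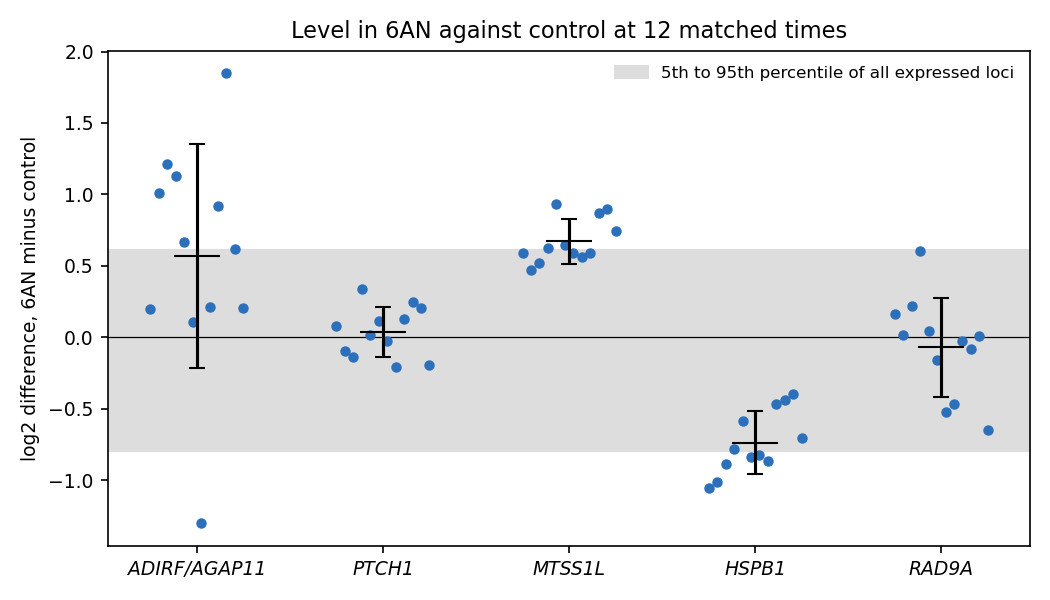
Difference in log2(FPKM + 1) between 6AN and control at each of 12 matched times (points, in time order from left to right within each row), with mean and SD over times (black). The grey band is the 5th to 95th percentile of the mean differences of all expressed loci, and the MTSS1L points lie all above and the HSPB1 points all below 0.

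Change between cycles was a measure that the choice of members did not use, although it comes from the same 12 libraries and a slope enters the umbrella p. For RAD9A in 6AN that p was above 0.01 both with its slope (0.75) and without it (0.0142). The cycle from 24 to 44 hr was compared with that from 0 to 20 hr within each table, paired by hour, with limma on log2(FPKM + 1) and Benjamini-Hochberg adjustment over all expressed loci. There is 1 library per time, so that the p-values measure the spread between hours of a single time course. Pairing by hour removes a rhythm of 24 hr only. In 6AN the fitted periods were 25.8 to 28.1 hr for the 7 clock genes and 25.1 hr (SE 5.69) for RAD9A. The part of such periods in the changes between cycles was not tested. In 6AN, RAD9A fell from a mean of 8.47 to 6.39 FPKM, a log2 change of −0.35 (SE 0.063, adjusted p = 0.0181, lower at 6 of 6 hours). The call was lost when the pair of libraries at 0 and 24 hr, 4 and 28 hr, or 12 and 36 hr was left out (largest adjusted p = 0.0555), with the log2 change between −0.40 and −0.32 in every alternative. In that condition 7.56% of expressed loci were called higher and 8.54% lower in the later cycle.

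The fall of RAD9A in 6AN was accompanied by one of PPP1CA, a protein phosphatase subunit whose row covers the same span (chr11:67391951-67401905) and which is far more abundant. PPP1CA went from 204 to 170.4 FPKM in 6AN, a log2 change of −0.25 (SE 0.059, adjusted p = 0.0368, lower at 6 of 6 hours). The annotated ends of these genes overlap, and whether reads were assigned by strand is not given in the sources used here, so that reads in the overlap cannot be told apart. Over the 12 times, r between the 2 rows was 0.73 in 6AN and −0.20 in control, where PPP1CA was not called rhythmic (p = 0.627). In control RAD9A had 7.53 and 8.05 FPKM in the earlier and later cycle, a log2 change of 0.08 (SE 0.054, adjusted p = 0.48, higher at 5 of 6 hours). Whether the change of RAD9A differed between conditions was not tested.

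The other rows were not called in either condition. HSPB1 had 992 and 807 FPKM in the earlier and later cycle of control, a log2 change of −0.30 (SE 0.061, adjusted p = 0.0595, lower at 6 of 6 hours), and adjusted p ran from 0.0629 to 0.163 over the alternatives. In control 1.48% of expressed loci were called higher and 1.86% lower. In 6AN HSPB1 had 547 and 528 FPKM (−0.05, SE 0.047, adjusted p = 0.482). For ADIRF/AGAP11, PTCH1, and MTSS1L the log2 changes lay between −0.18 and 0.13 and the adjusted p between 0.454 and 0.812 across both conditions. The row of LOC100507346, which covers the span of PTCH1, was at 2.83 FPKM in control and 2.93 in 6AN and was not called in any comparison.

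The other genes of the pathways in which the members act were followed in lists drawn up from their roles. In the Hedgehog list of PTCH1, 10 of 14 genes were expressed, all ligands (SHH, IHH, DHH) being below the expressed set, and 0 of the 10 were called rhythmic in either condition. The transcription factor GLI2 fell in the later cycle in control (log2 change −0.28, SE 0.043, adjusted p = 0.0335) and in 6AN (−0.33, SE 0.079, adjusted p = 0.0393), and the GLI inhibitor SUFU fell in 6AN (−0.30, SE 0.073, adjusted p = 0.0412). The list median was 0.03 in control and −0.13 in 6AN, against 0.00 over all expressed loci in each. The shares called over all expressed loci were 1.86% lower in control and 8.54% lower in 6AN. In level, 4 of the 10 were lower in 6AN at all 12 times and 0 higher, against 19.8% and 12.6% of all expressed loci, and the median difference was −0.20. The 4 include GLI1, at 3.95 FPKM in control and 0.854 in 6AN (−1.41, SD 0.25), and HHIP, at 1.43 and 0.411 FPKM, both named after their values were seen. GLI1, HHIP, and PTCH1 are textbook target genes of Hedgehog signalling, and PTCH1 itself had 6.09 and 6.30 FPKM.

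In the 9-1-1 and ATR list of RAD9A, 9 of 11 genes were expressed and 0 were called rhythmic. The other clamp subunits HUS1 and RAD1 had umbrella p-values of 0.0279 and 0.183 in control, with fitted peaks at 0.84 and 0.67 hr. In the later cycle of 6AN, CLSPN, the adaptor by which ATR acts on its effector kinase, fell (−0.50, SE 0.069, adjusted p = 0.00896), as did that kinase, CHEK1 (−0.39, SE 0.097, adjusted p = 0.0434). RAD17, which loads the clamp, rose (0.22, SE 0.056, adjusted p = 0.0475). These were 2 of 9 lower and 1 of 9 higher, against 8.54% and 7.56% of all expressed loci, and none of the 9 passed in control. In level, 3 of 9 (TOPBP1, CLSPN, and CHEK1) were lower in 6AN at all 12 times, against 19.8% of all expressed loci, with CHEK1 at 15.6 and 8.38 FPKM, and the list median was −0.36.

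In the heat shock list of HSPB1, 8 of 12 genes were expressed and 0 were called rhythmic. The chaperone CRYAB, the most abundant of the 8, fell in the later cycle in control (−0.43, SE 0.063, adjusted p = 0.0274) and in 6AN (−0.42, SE 0.089, adjusted p = 0.0292). HSPB2 (−0.42, adjusted p = 0.0335, a row shared with C11orf52) and HSPB7 (−0.70, adjusted p = 0.00525, mean 0.855 FPKM) fell in control, and MAPKAPK2, a kinase of HSPB1, fell in 6AN (−0.14, adjusted p = 0.0382), all by limma. The falls were 3 of 8 in control and 2 of 8 in 6AN, against 1.86% and 8.54% of all expressed loci. HSPB1, HSPB2, and CRYAB were thus lower in the later control cycle by 0.30 to 0.43, with HSPB1 outside the threshold, and the list median was −0.23 in control and −0.13 in 6AN. In level the list was split, with 3 of 8 higher (HSF1, MAPKAPK2, and HSPB8) and 3 of 8 lower (CRYAB, HSPB11, and the co-chaperone BAG3) in 6AN at all 12 times, against 12.6% and 19.8% of all expressed loci.

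All 4 other inverse BAR genes were expressed. BAIAP2 was higher in 6AN at all 12 times, as MTSS1L was, and BAIAP2L1 was lower at all 12 times (13.2 and 6.75 FPKM). BAIAP2L1 also fell in the later cycle of control (−0.28, SE 0.044, adjusted p = 0.0352), and 0 of the 4 were called rhythmic. Of the 7 other AGAP genes, AGAP2 was called rhythmic in 6AN (umbrella p = 0.00793), with a fitted peak at 3.54 hr, and AGAP3 fell in the later 6AN cycle (−0.34, SE 0.064, adjusted p = 0.0221). AGAP4, AGAP5, AGAP6, and AGAP9 are near-identical copies between which short reads can be split, and their values are uncertain. Of the fat cell genes set beside ADIRF, 4 of 5 were expressed and 0 were called rhythmic, the nearest being the regulator PPARG in 6AN (p = 0.0142). CEBPB rose in the later cycle in control (0.27, SE 0.036, adjusted p = 0.0207) and in 6AN (0.24, SE 0.036, adjusted p = 0.0107) and was higher in 6AN at all 12 times. Of all expressed loci, 12.6% were higher and 19.8% lower in 6AN at all 12 times, and 0.797% were called rhythmic in 6AN. In the later cycle, 1.48% were called higher and 1.86% lower in control, and 7.56% and 8.54% in 6AN.

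The members were 4 of the 8 bound loci called rhythmic in 6AN and 1 of the 4 called in control. The 439 sites of 6AN named 344 expressed loci, so that these calls were 2.33% of bound loci in 6AN and 1.16% in control. Of all expressed loci, 0.797% were called in 6AN and 0.831% in control. In 6AN the 4 besides the members were PER3, CRY1, DBP, and TEF, and in control the 3 besides RAD9A were CRY1, NR1D1, and CCDC88A, which is named here after its values were seen. Of the 124 expressed loci named by the 147 control sites, 5 (4.03%) were called in 6AN, with ADIRF/AGAP11 among them, and 2 (1.61%) in control, RAD9A and NR1D1. The members were chosen from these calls, so that the counts describe the choice. By harmonic regression 18 and 8 of the 344 (5.23% and 2.33%) were called in 6AN and control, against 1.1% and 0.94% of all expressed loci. MTSS1L, HSPB1, and RAD9A but neither ADIRF/AGAP11 nor PTCH1 were among them.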

How the data were processed

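RNA-seq was from 12 time points per condition and ChIP-seq from 1 library per antibody and condition. The authors deposited FPKM per locus, with control and 6AN in separate tables that were normalized apart; their processing notes name Bowtie, TopHat, Cufflinks, Bowtie2, and HOMER on hg38, with versions not given in the sources used here. For shared sites the authors deposited HOMER signal, the tags in 1000 bp scaled to 10000000 tags per library, and for merged peaks a deposited peak score, of which only the positions and the libraries were used. Site annotation was that of the deposited files. All per-sample columns were used.

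FPKM were logged with a pseudocount of 1, as were signals. The umbrella test compared ranks with 18 shapes over 1000000 random orders. Peaks came from a 24 hr cosine with a linear trend, periods from a grid of 16 to 32 hr, and SE from the jackknife over times. Cycles were compared with limma 3.58.1 in R 4.3.3 (moderated variance with a trend, hour as a block), called at an adjusted p of 0.05. Tag counts were signal times library total, which ran from 1409550 (H3K9ac, control) to 33273106 (input, control). Ratios carry exact binomial (Clopper-Pearson) 95% intervals. The RNA-seq files hold no read totals, so that the depth is unknown beyond its relative size within a table (0.58 to 1.31 of the median in control and 0.70 to 1.56 in 6AN, from the steps between low FPKM). Python 3.11.15, NumPy 2.4.6, pandas 2.3.3, SciPy 1.17.1, and matplotlib 3.10.9 were used.

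The members, gene lists, and tests were chosen with earlier results of these data known. Genes named were the members, genes sharing their rows or spans, the 3 loci of highest r, list genes that were called (or the most expressed), and 7 clock genes; other list genes named for a level, or as nearest to the threshold, were chosen after their values were seen. On simulated tables with 200 altered loci, limma called 89.5% of shifts of 1 (log2), and the umbrella test and harmonic regression called 81.5% and 99% of cosines of 3 SD. For ADIRF/AGAP11, PTCH1, and HSPB1 in 6AN, a 24 hr cosine took 0.56 to 0.65 of the variance. Such rhythms are smaller than the simulated cosines, so that the rates overstate the power for them. RAIN itself was not run.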

Additional observations from a re-analysis of the deposited data

How the results depend on the processing

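For the 5 rows, level differences and fitted periods kept their values within 1 spread under each alternative, except the period of MTSS1L in control without 16 hr (32 hr, against 18.8). Among rhythm calls of members, harmonic regression lost ADIRF/AGAP11 and PTCH1 in 6AN, and removing a linear trend lost PTCH1 and MTSS1L. Over all expressed loci, calls at p of at most 0.05 in place of 0.01 numbered 738 in control and 626 in 6AN, against 122 and 117. Leaving out each time gave 125 to 194 and 108 to 152 calls. With no filter on low FPKM, 295 loci differed between cycles in control, against 490, since more loci were tested. Leaving out each pair of hours, which leaves fewer libraries, gave 101 to 216 in control and 991 to 1731 in 6AN, against 2364. Loci higher in 6AN at all times numbered 1847, and 1885 to 1956 without each time (2314 when centred), and those lower 2907, and 2953 to 3116 (2576 when centred). Harmonic regression called 8 and 18 bound genes of the 6AN site list (2.33% and 5.23%) in control and 6AN, and 6 and 13 of the control list (4.84% and 10.5%). Of all expressed loci it called 0.94% and 1.1%. Subtracting the input change reversed BMAL1 at AGAP11 from 0.32 to −0.42 on the log2 scale, where the input held 14 tags in 6AN; it also moved CLOCK there from 1.103 to 0.36, H3K4me3 at AGAP11, PTCH1, and MTSS1L from −0.29, −0.20, and −0.04 to −1.04, −1.11, and −0.83, and H3K9ac at AGAP11 and PTCH1 from 0.11 and 0.41 to −0.63 and −0.50. CLOCK at PTCH1 went from 0.90 to −0.01 and at MTSS1L from 0.98 to 0.19, within counting error. No paired analysis was possible because the labels give no replicate numbers, beyond the pairing by hour and by time that the comparisons already use. With 1 library per time or antibody, variation between experiments was not measured, and the lowest tag counts, 7.5 for CLOCK in control at PTCH1 and MTSS1L, limit those ratios.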

Other observations

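The clock genes set beside the members included 4 that were higher and 3 that were lower in 6AN at all 12 times, of 16 expressed; those below are named after their values were seen. BHLHE41, a repressor that competes for E-boxes, had a mean of 28.5 FPKM in control and 6.42 in 6AN and was lower in 6AN at all 12 times, whereas its paralog BHLHE40 had 54.7 and 93.8 FPKM and was higher at all 12. PER1, among the 3 loci most like ADIRF/AGAP11, had 15.3 and 31.4 FPKM and was also higher at all 12 times. CLOCK and its paralog NPAS2 were lower at all 12 times, at 7.99 and 6.01 FPKM and at 29.3 and 16.7 FPKM. These are values without a test, and of all expressed loci 12.6% were higher and 19.8% lower at all 12 times.

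No transcript row of ADIRF-AS1 was found under that name in the tables, although its RefSeq start site lies at −161 bp from the centre of the strongest member peak, nearer than the starts of AGAP11 and ADIRF, at −1065 and −2919 bp. Which transcript of this locus gave the FPKM of the shared row was not tested.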
